A study of Mus musculus with 2 samples.

Results

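Lectins are proteins that bind the sugar chains on cells, microbes and secreted proteins. The lectin and lectin-like genes of mouse taken here carry a symbol of the C-type lectin (Clec, Cd209, Klrb to Klrk), Siglec or galectin (Lgals) series, or are Mrc1, Mgl2, Cd33 or Ly75. The symbols match 68 of the 16428 genes with a read in at least 1 library, and 54 of the 68 had 10 or more reads in bone marrow or spleen. The other 14 genes fell under that limit and were not compared. Just inside the limit, Cd209b had 4 and 10 reads (bone marrow first, here and wherever a pair of values is given), Clec2f 2 and 13 and Clec1a 8 and 13. Just outside it, Clec2h had 1 and 8 and Clec4g 0 and 7.

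The RNA came from macrophages, as the samples are labelled, of mice given leukaemia cells that carry the MLL-AF9 fusion oncogene, a model of acute myeloid leukaemia (AML). C57BL/6J recipients aged 6 to 8 weeks received 500000 GFP-positive leukaemia cells each, without irradiation, and such mice survived 25 to 30 days. Cells were sorted on day 15, and there was 1 library from bone marrow and 1 from spleen, both from leukaemic mice. How the macrophages were gated and how many mice were pooled were not stated in the labels. Neither group is a leukaemia-free control.

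Many C-type lectins of myeloid cells pass signals through the kinase Syk, either directly or through adaptors with an activation motif, and others carry an inhibitory motif that recruits phosphatases. Siglecs read sialic acid at the ends of sugar chains and are mostly inhibitory, while galectins are secreted or cytosolic and bind galactose-containing chains. The Klr genes encode lectin-like receptors of natural killer (NK) and T cells that bind proteins, among them class I molecules and the products of the Clec2 genes.

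The genes with 10 or more reads held 9618707 counted reads in bone marrow and 8256939 in spleen. Levels are given as reads and as CPM, the count scaled to a common library size. A single library per tissue allows no test between tissues. Each fold is a ratio of CPM with an exact 95% interval that covers counting error only, and reads amplified by PCR without molecular identifiers are not independent molecules. A gene is called higher in a tissue where its log2(CPM + 1) differed by at least 1, that is at least 2-fold on that scale. Low genes can pass 2-fold in CPM and stay uncalled, because the added 1 CPM pulls their ratio toward equality.

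Markers of macrophages and of other cell types had reads in both libraries. All 20 macrophage markers had reads in both libraries, and 12 were called higher in spleen (summed CPM 1250 in bone marrow, 2254 in spleen). Of the neutrophil and precursor markers, 18 of 19 were higher in bone marrow, at a summed CPM of 50196 against 2351, and a 20th, Ly6g, was listed in neither table. Basophil and mast cell markers summed to 2220 against 62.2 CPM (7 of 8 higher in bone marrow), and eosinophil markers to 690 against 89.3 CPM (5 of 8). Spleen was higher in B cell markers (13 of 13 higher, 516 against 5484 CPM), T cell markers (15 of 15, 274 against 1982) and mature dendritic cell (DC) markers (8 of 9, 53.1 against 939). Monocyte markers summed to 1057 and 1271 CPM (2 of 12 higher in bone marrow, 4 in spleen), cDC2 markers to 610 and 2012 CPM (7 of 8 higher in spleen) and endothelial markers to 163 and 201 CPM (3 of 9 and 2 of 9). The cDC2 list shares Cd4 with the T cell list, Tbx21 with the NK list and Esam with the endothelial list. Its widest differences were in Cd4 (18.7 and 221 CPM), Ltb (39.7 and 389) and Dtx1 (7.55 and 316), so its sum is not specific to cDC2. In bulk RNA, fewer cells of a type and less RNA per cell cannot be told apart.

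Among the 54 genes, 11 were called toward bone marrow, 14 toward spleen and 29 were not called. The CPM ratio itself was past 2-fold for 6 of the 29 (Ly75, Clec10a, Cd209b, Cd209c, Cd209d and Lgals4). Over all 12970 genes with 10 or more reads the shares called were 14.1% for bone marrow and 14.6% for spleen, against 20.4% and 25.9% of the lectin genes. With a 4-fold limit, 6 lectin genes were higher in each tissue, beside 4.42% and 4.09% of all genes. The median log2 difference, bone marrow minus spleen, was -0.20 for the lectin genes and 0.03 for all genes. As a set the genes took 0.204% of the bone marrow reads and 0.201% of the spleen reads, or a summed 2084 and 1966 CPM. Counting error alone leaves 15 of the 54 ratios with an interval that includes equal levels, and 21 of the 25 called ratios have an interval wholly beyond 2-fold. Leaving out the Clec2, Clec4a, Clec4b, Cd209, Klrb1, Klrc and Klri families, named for possible shared reads, left 32 genes, with 7 called toward spleen, 9 toward bone marrow and a median of 0.10. Many genes of these families share little or no sequence, and keeping instead the 39 genes with at most 5% of 50-base transcript windows shared with another gene gave 9, 9 and a median of -0.20. Without the Klr genes the median was 0.01.

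**Figure D1:**
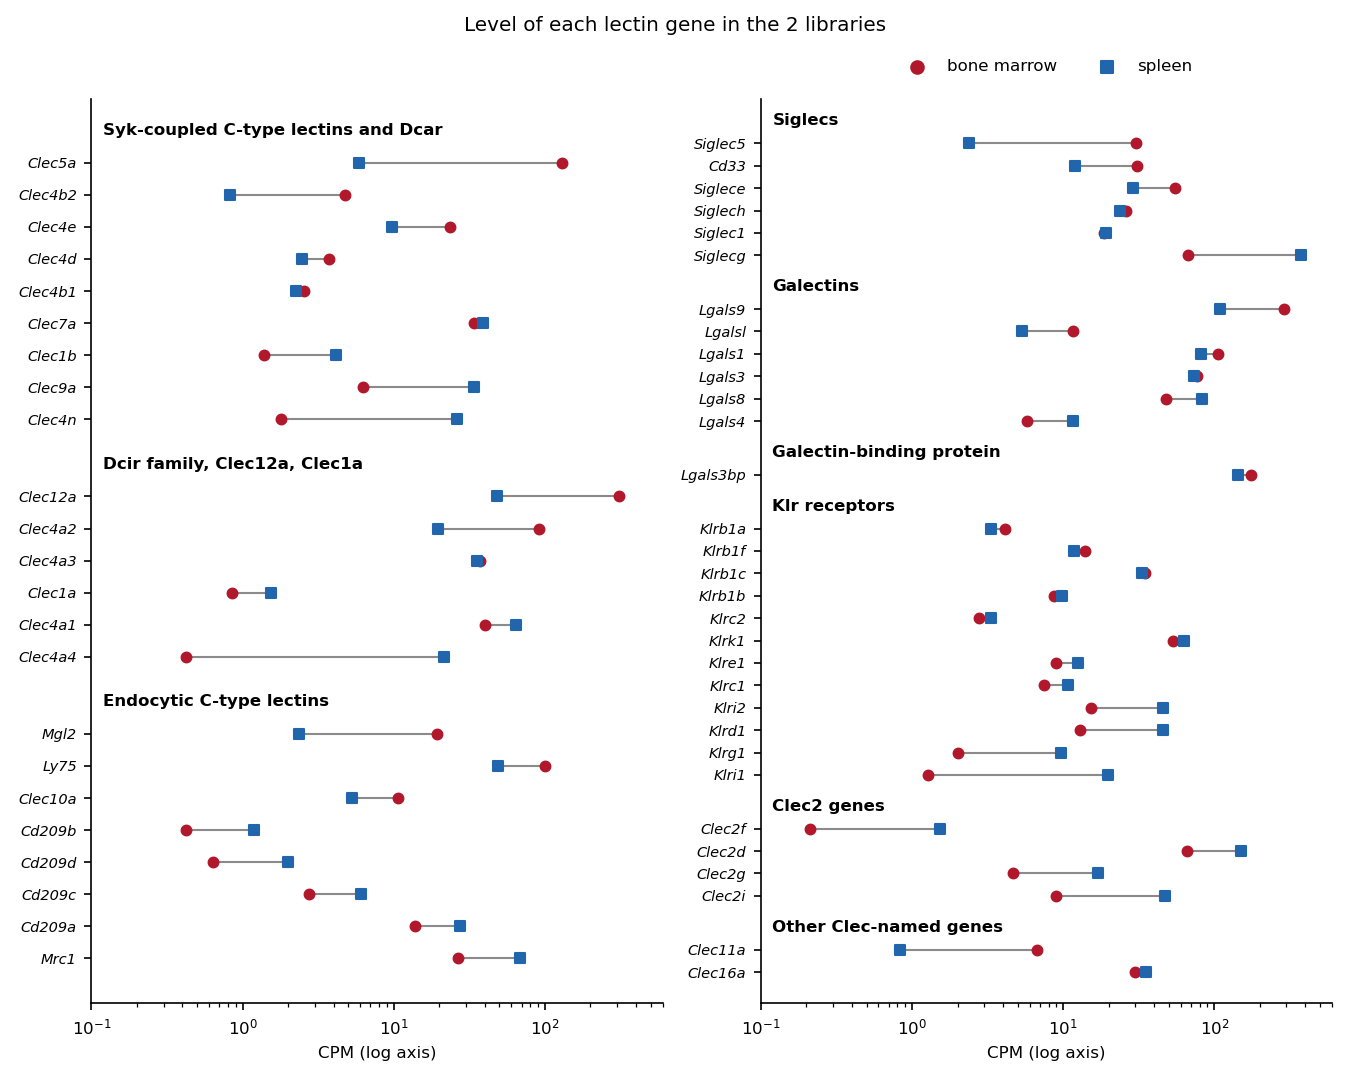
CPM (log axis) of each of the 54 lectin genes in the bone marrow and spleen libraries, grouped by role, 1 point per library. Clec5a and Clec12a sit far to the right in bone marrow (129 and 311 CPM) relative to spleen (5.91 and 48.2 CPM), and Siglecg sits far to the right in spleen (374 against 67.0 CPM).

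RPKM divides by gene length and so lets genes be compared. On that scale Lgals9 (RPKM 179) and Clec12a (137) were the most abundant lectin genes called toward bone marrow, and Siglecg (154) and Clec2d (127) toward spleen. A gene is called toward 1 tissue at most, so these leading genes had to differ. Of the top 10 lectin genes by RPKM in each library, 5 were common to both, among them Lgals9, Clec2d and Lgals1. Clec12a and Lgals9 together gave 28.8% of the lectin reads in bone marrow, and Siglecg and Clec2d 26.7% in spleen. The log2(CPM + 1) levels in the 2 libraries correlated with Pearson's r of 0.67 over the 54 genes and 0.86 over all genes, as a description across genes, which are not replicates.

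**Figure D2:**
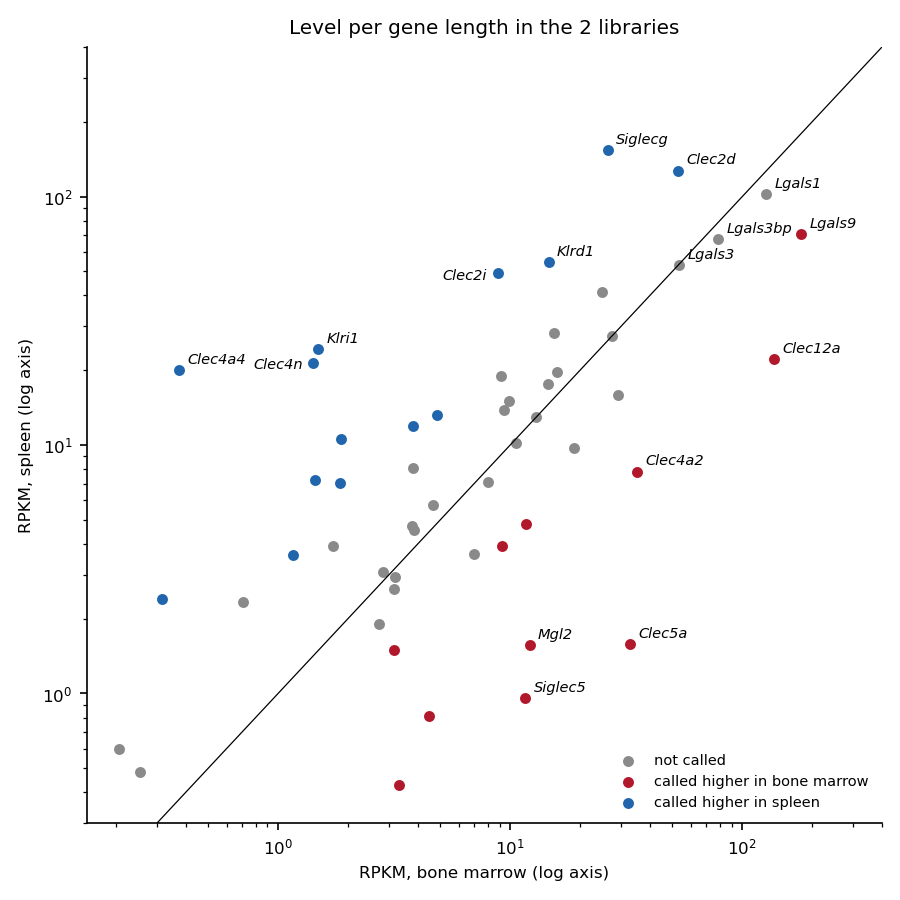
RPKM of the 54 lectin genes, bone marrow on the x axis and spleen on the y axis (both log), with the line of equal levels. Clec5a and Clec12a lie well below the line, and Clec4a4 (RPKM 0.375 in bone marrow, 20.0 in spleen) and Siglecg well above it.

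The sequence before the start site is shown for Clec12a, Lgals9, Siglecg and Clec2d. They had the highest RPKM among the genes called toward each tissue, not the widest ratios, a choice made after their values were seen. Sequences are the 250 bases before the annotated start from RefSeq (GRCm38.p6), 5′ to 3′ on the gene's strand. They lie at chr6:129349994-129350243 (+, Clec12a), chr11:78984925-78985174 (-, Lgals9), chr7:43407989-43408238 (+, Siglecg, which has another start nearby) and chr6:129180365-129180614 (+, Clec2d). Capitals mark matches, on either strand, to the motifs named next.
Clec12a: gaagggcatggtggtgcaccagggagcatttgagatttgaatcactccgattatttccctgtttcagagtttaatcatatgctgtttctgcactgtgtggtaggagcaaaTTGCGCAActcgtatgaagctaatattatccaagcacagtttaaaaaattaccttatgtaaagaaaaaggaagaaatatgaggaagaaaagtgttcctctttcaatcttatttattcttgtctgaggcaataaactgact
Lgals9: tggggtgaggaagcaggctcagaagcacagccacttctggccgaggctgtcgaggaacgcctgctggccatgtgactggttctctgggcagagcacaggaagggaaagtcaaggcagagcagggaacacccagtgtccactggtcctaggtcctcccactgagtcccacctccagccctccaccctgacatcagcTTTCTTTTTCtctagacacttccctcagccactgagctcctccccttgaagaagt
Siglecg: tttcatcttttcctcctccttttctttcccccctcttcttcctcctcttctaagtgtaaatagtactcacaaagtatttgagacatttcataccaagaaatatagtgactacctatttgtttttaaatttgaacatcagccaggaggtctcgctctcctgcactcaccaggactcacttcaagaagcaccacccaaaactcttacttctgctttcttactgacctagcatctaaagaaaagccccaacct
Clec2d: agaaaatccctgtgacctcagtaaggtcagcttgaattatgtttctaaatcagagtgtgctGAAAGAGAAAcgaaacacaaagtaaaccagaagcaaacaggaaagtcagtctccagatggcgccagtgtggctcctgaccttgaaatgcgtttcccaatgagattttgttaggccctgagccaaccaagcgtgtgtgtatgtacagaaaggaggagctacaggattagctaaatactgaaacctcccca

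The capitals in Clec12a are a match to the C/EBP motif TTGCGCAA. Those in Lgals9 and Clec2d match the interferon-response motif, which is TTTC, any 2 bases and TTTC again, on the reverse strand in Clec2d. Lgals9 has a further match within the 50 bases after its start, not shown. The search covered windows of 250 bases before to 50 after the start, on both strands, and 44 of the 54 lectin genes had at least 1 such window (51 windows in all, of 32851 for all genes). TTGCGCAA was in 1 of 51 lectin windows (1.96%) and in 0.183% of all windows. The interferon-response motif was in 4 lectin windows (7.84%) and in 3.44% of all windows. The PU.1 motif GAGGAAGT and the NF-kB motif (GGGA, any base, TTTCC) were in 0 lectin windows, and in 3.20% and 0.411% of all windows. The looser C/EBP motif TTGCNNAA, of which TTGCGCAA is a case, was in 11 of 51 lectin windows (21.6%) and in 10.8% of all windows, with 3 of 11 windows of genes higher in bone marrow and 2 of 10 of genes higher in spleen, the latter both of Clec2i, whose overlapping windows hold the same match. A match is a description of letters, not a site, and the absence of one says nothing of the factor.

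**Figure D3:**
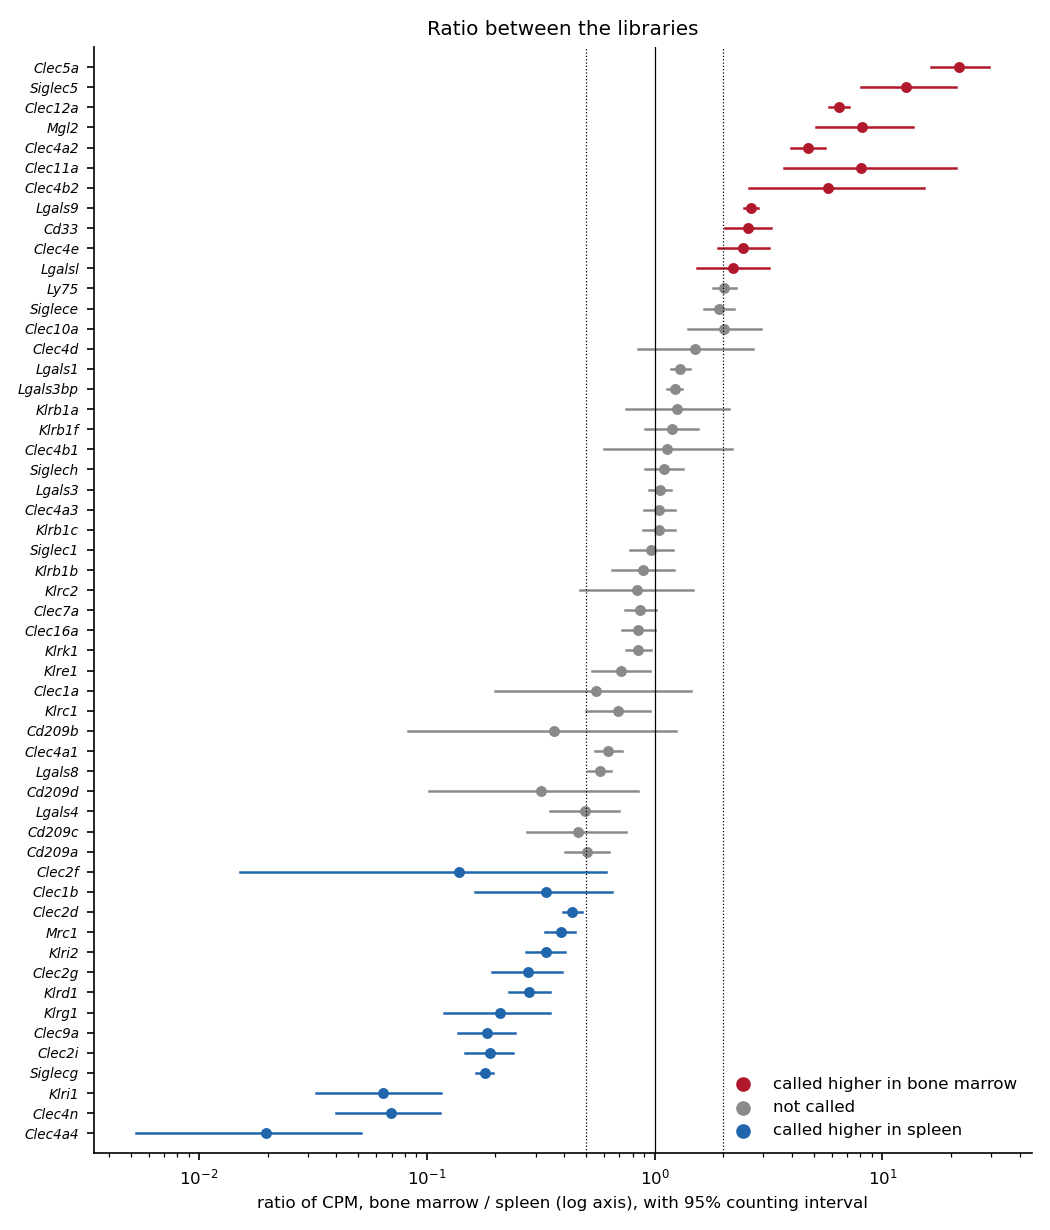
Ratio of CPM, bone marrow over spleen (log axis), for the 54 lectin genes with 95% counting intervals, coloured by whether the gene was called on the log2(CPM + 1) scale. Clec5a is at the top (21.8) and Clec4a4 at the bottom (50.9-fold higher in spleen).

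The receptors that signal through Syk split between the tissues, with 3 of 9 higher in bone marrow and 3 in spleen. Clec5a, a receptor that uses the adaptor DAP12, gave 1210 bone marrow reads (129 CPM) and 50 spleen reads (5.91 CPM), 21.8-fold higher in bone marrow (interval 16.4 to 29.5). Clec4e (Mincle, a sensor of mycobacterial glycolipid and dead cells) had 223 and 82 reads (23.7 and 9.70 CPM), 2.45-fold higher in bone marrow (1.89 to 3.19). Clec4b2, a close relative of the Dcar receptor, had 45 and 7 reads (5.78-fold, 2.59 to 15.2). These 3 are the bone marrow side of the group.

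Going the other way, Clec4n (Dectin-2, a receptor for fungal mannans) gave 17 bone marrow reads (1.81 CPM) and 220 spleen reads (26.0 CPM), 14.4-fold higher in spleen (8.79 to 25.2). Clec9a, which binds actin filaments of dead cells and marks cross-presenting DCs, had 59 and 289 reads (6.27 and 34.2 CPM), 5.45-fold higher in spleen (4.10 to 7.34). The platelet receptor Clec1b was low, with 13 and 35 reads (2.99-fold higher in spleen, 1.55 to 6.17). Clec9a, Clec1b and Clec1a overlap Clec12b in RefSeq, and Clec4b2, Clec7a, Mgl2, Mrc1, Lgals1, Siglech and Clec16a overlap other genes. Whether counting used strand is not stated, so the split of the reads of all these genes is uncertain. Megakaryocyte and platelet markers, the platelet side of Clec1b, summed to 443 and 94.9 CPM (8 of 12 higher in bone marrow; a 13th, Gp6, was listed in neither table). Clec7a (Dectin-1, the beta-glucan receptor) had 319 and 331 reads and an interval that includes equal levels, as did Clec4d (35 and 21) and Clec4b1 (24 and 19).

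Dectin-2 and Mincle lie in the same gene cluster but changed order between the tissues: per length, Clec4n was 0.154 of Clec4e in bone marrow and 5.43 times Clec4e in spleen. That pair, like the other ratios per length given later, was chosen after the values were seen. Of 20 genes of the Syk and ITAM route, 1 (5%) was called toward bone marrow and 4 (20%) toward spleen, beside 14.1% and 14.6% of all genes. Card9, the adaptor downstream of Syk, was at 113 and 32.6 CPM, while its partner Malt1 was at 65.5 and 311 CPM. Fcer1g (203 and 144 CPM), Tyrobp (216 and 195) and Syk (454 and 804) lay within 2-fold.

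Neutrophil and basophil markers were higher in bone marrow, as were the monocyte markers Ly6c2 (206 and 72.0 CPM) and F13a1 (56.6 and 11.5). Of the 12 monocyte markers, 4 were higher in spleen. Clec5a, Clec4e and Clec4b2 are 3 of the 11 lectin genes called toward bone marrow. The rest are Clec12a, Clec4a2, Mgl2, Siglec5, Cd33, Lgals9, Lgalsl and Clec11a, in the other groups. Of the markers of cDC1, the DC type that expresses Clec9a, 8 of 9 were higher in spleen (734 against 1751 CPM summed). Most of that sum was Wdfy4 (378 and 860 CPM) and Irf8 (169 and 420 CPM), while Xcr1 had 31 and 231 reads. Apart from Ly6g, no marker of the neutrophil, macrophage or cDC1 lists was at 0 in either library. The part of these cell types, or of the leukaemia cells, in the lectin differences was not tested.

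Summed over its 6 genes, the Dcir family with Clec12a and Clec1a gave 482 and 191 CPM. Clec12a, an inhibitory receptor for uric acid crystals found on myeloid cells, had 2926 reads (311 CPM) and 408 (48.2 CPM), 6.45-fold higher in bone marrow (5.81 to 7.17). Clec4a2 (Dcir1, inhibitory) had 864 and 165 reads (91.9 and 19.5 CPM), 4.71-fold higher in bone marrow (3.98 to 5.60). Its relative Clec4a4 (Dcir2) went the other way, with 4 and 183 reads (0.425 and 21.6 CPM), 50.9-fold higher in spleen (19.5 to 189), and 15.7% of the 50-base windows of its transcripts are shared with Clec4a2. Per length Clec4a4 was 0.0107 of Clec4a2 in bone marrow and 2.56 times it in spleen. Clec4a1, the gene of this family with the highest RPKM in spleen (41.4), had 380 and 545 reads (40.4 and 64.4 CPM, 1.59-fold higher in spleen, 1.40 to 1.82) and lay within 2-fold, as did Clec4a3 (352 and 302 reads) and Clec1a. Of the 11 phosphatases and kinases that act with inhibitory motifs, 0 were called, beside 14.1% and 14.6% of all genes. The phosphatase gene Ptpn6 was at 419 and 723 CPM.

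Genes that lie together did not all share a direction. In RefSeq order, the run of 9 Clec4 genes on chromosome 6 held 3 called toward bone marrow and 2 toward spleen. The run of 20 Klr and Clec genes on the same chromosome held 1 and 9. The run of 4 Siglec genes on chromosome 7, which leaves out the more distant Siglech, held 2 and 1. None of the 4 Cd209 genes on chromosome 8 was called.

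**Figure D4:**
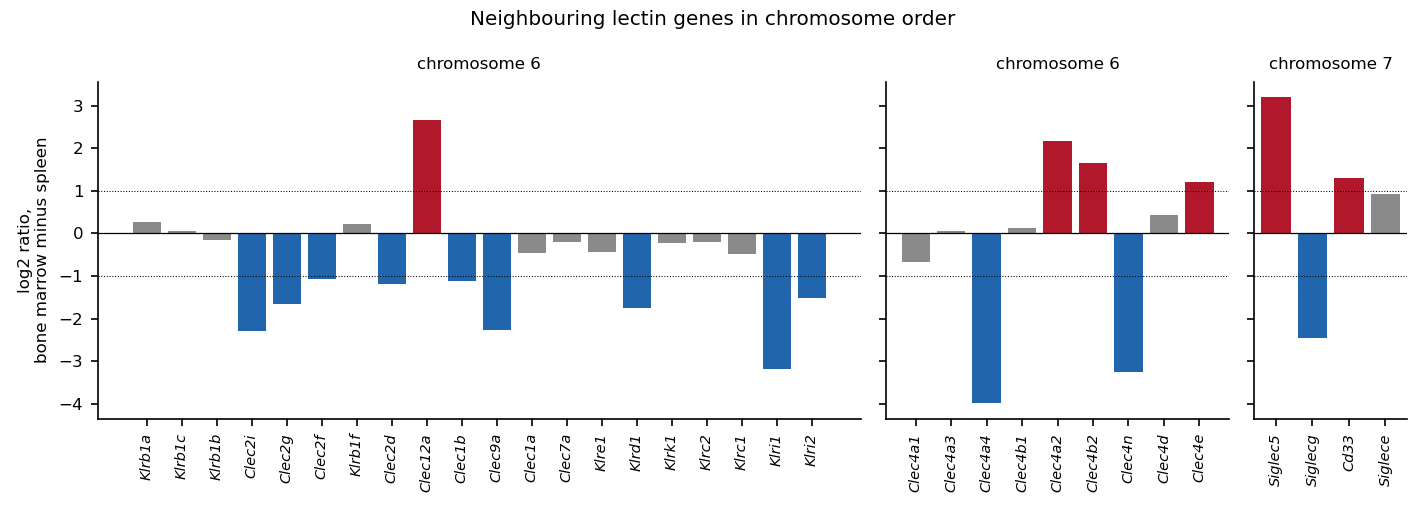
log2 difference, bone marrow minus spleen, in chromosome order for 3 runs of lectin genes, each within 200 kb of the next, 1 bar per gene and dotted lines at 2-fold. In the Clec4 run on chromosome 6, Clec4a2, Clec4b2 and Clec4e point to bone marrow and Clec4a4 and Clec4n to spleen, and in the 20-gene run, Clec12a alone points past 2-fold to bone marrow against 9 genes to spleen.

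Of the 8 endocytic receptors, 1 was called in each direction and 6 were not called. Mgl2, a receptor for galactose and N-acetylgalactosamine, had 181 and 20 reads (19.2 and 2.36 CPM), 8.14-fold higher in bone marrow (5.12 to 13.6), and 14.5% of its windows are shared with Clec10a. Mrc1, which takes up mannose-bearing proteins, had 249 and 580 reads (26.5 and 68.6 CPM), 2.59-fold higher in spleen (2.23 to 3.02). Ly75 (DEC-205) just missed the limit, with 934 and 416 reads (99.3 and 49.2 CPM, 2.02-fold higher in bone marrow, 1.80 to 2.27) and a log2 difference of 0.999. Clec10a, the close relative of Mgl2, had 101 and 45 reads (2.02-fold, 1.41 to 2.94). The Cd209 genes, mouse relatives of DC-SIGN, were not called: Cd209a had 130 and 232 reads (13.8 and 27.4 CPM, 1.98-fold higher in spleen, 1.59 to 2.48), while the lower genes had CPM ratios past 2-fold toward spleen, on few reads. These were 2.78-fold for Cd209b (4 and 10 reads, 0.802 to 12.1), 2.18-fold for Cd209c (26 and 51, 1.33 to 3.65) and 3.15-fold for Cd209d (6 and 17, 1.19 to 9.76). Per length, Mrc1 was 0.259 of Ly75 in bone marrow and 1.35 times it in spleen.

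The Siglecs also split, with 2 of 6 higher in bone marrow and 1 in spleen. Siglec5 (RefSeq Siglecf, an inhibitory receptor known on eosinophils) had 283 reads (30.1 CPM) and 20 (2.36 CPM), 12.7-fold higher in bone marrow (8.08 to 21.2). Cd33, another inhibitory Siglec of myeloid cells, had 291 and 102 reads (30.9 and 12.1 CPM), 2.57-fold higher (2.04 to 3.25). Siglecg, an inhibitory Siglec of B cells, was the most abundant spleen lectin, with 630 and 3164 reads (67.0 and 374 CPM), 5.59-fold higher in spleen (5.13 to 6.09), and 8.65% of its windows are shared with other genes. Siglece (520 and 244), Siglech (245 and 201, a plasmacytoid DC marker) and Siglec1 (175 and 163, the macrophage receptor CD169) lay within 2-fold. Plasmacytoid DC markers summed to 484 and 1232 CPM (1 of 12 higher in bone marrow, 3 in spleen, 8 within 2-fold). In spleen that sum was led by Spib (97.4 and 503 CPM) and Ly6d (21.9 and 250 CPM). Siglece overlaps Ceacam18 and Ctu1 in RefSeq, which leaves its reads uncertain.

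Eosinophil markers moved with Siglec5 (Epx 1589 and 20 reads, though Ccr3 and Il5ra were higher in spleen), and B cell markers with Siglecg. None of the 8 eosinophil or 13 B cell markers was at 0 in either library, and their part in the result was not tested. A list of 23 genes covered sialic acid synthesis and transfer, and also its modification (Cmah, Casd1) and removal (Neu1, Neu3). Of these, 0 were called toward bone marrow and 5 (21.7%), Cmah among them, toward spleen. Over all genes the shares were 14.1% and 14.6%. St6gal1, the enzyme that adds the sialic acid bound by Cd22, was at 48.0 and 297 CPM, and St8sia1 at 2.87 and 55.6 CPM. The Siglec Cd22, outside the symbol rule, was at 47.8 and 807 CPM.

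Of the 6 galectins, 2 were called toward bone marrow and 0 toward spleen. Lgals9, which binds Tim-3 (Havcr2), had 2728 reads (290 CPM) and 926 (109 CPM), 2.65-fold higher in bone marrow (2.46 to 2.86). Lgalsl, a galectin-like gene, was close to the limit at 110 and 45 reads (11.7 and 5.32 CPM; 2.20-fold, 1.54 to 3.18). Lgals1, the galectin with the highest RPKM in spleen (102), had 996 and 691 reads (106 and 81.7 CPM, 1.30-fold higher in bone marrow, 1.18 to 1.43). Lgals3 (723 and 616) and Lgals8 (447 and 702) lay within 2-fold as well, and Lgals4 (54 and 98) was not called at 2.02-fold higher in spleen (1.43 to 2.87). Per length, Lgals9 was 1.41 times Lgals1 in bone marrow and 0.690 of it in spleen. Havcr2 itself was higher in spleen (8.61 and 72.0 CPM). Of 18 glycan and receptor partners of galectins, 4 (22.2%) were called toward bone marrow and 2 (11.1%) toward spleen, beside 14.1% and 14.6% of all genes. Lgals3bp, which encodes a secreted glycoprotein bound by galectins, had 1641 and 1206 reads (174 and 143 CPM, 1.22-fold higher in bone marrow, 1.14 to 1.32).

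**Figure D5:**
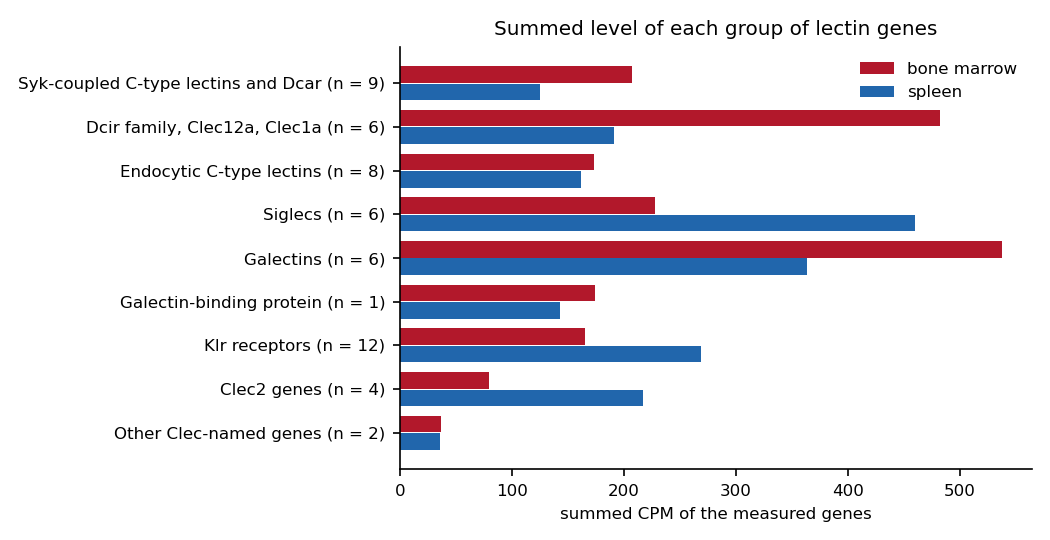
Summed CPM of the measured genes in each role group, bone marrow and spleen side by side. The Dcir family with Clec12a and Clec1a has the widest gap on the bone marrow side (482 against 191), and the Siglecs on the spleen side (228 against 460, most of it Siglecg).

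The Klr and Clec2 genes that were called were all called toward spleen: 4 of 12 Klr genes and 4 of 4 Clec2 genes, beside 14.6% of all genes. No Klrb1 gene was among them. The log2 differences were 0.26 for Klrb1a, 0.23 for Klrb1f, 0.06 for Klrb1c and -0.15 for Klrb1b. Klrd1 (CD94) had 122 and 389 reads (12.97 and 46.0 CPM), 3.55-fold higher in spleen (2.89 to 4.38), and Klrg1, a receptor for cadherins, 19 and 82 reads (2.02 and 9.70 CPM; 4.80-fold, 2.89 to 8.37). Klri1 had 12 and 168 reads (1.28 and 19.9 CPM; 15.6-fold, 8.68 to 30.7) and Klri2 143 and 387 (15.2 and 45.8 CPM; 3.01-fold, 2.48 to 3.67), and both encode receptors that pair with Klre1 (84 and 106 reads). Of the Clec2 genes, Clec2d, a ligand of Klrb1 family receptors, had 617 and 1277 reads (65.6 and 151 CPM; 2.30-fold, 2.09 to 2.54), Clec2i 84 and 401 (8.93 and 47.4 CPM; 5.31-fold, 4.19 to 6.80) and Clec2g 44 and 143 (4.68 and 16.9 CPM; 3.61-fold, 2.56 to 5.19). Clec2f had 2 and 13 reads (7.23-fold, 1.64 to 66.0). Clec2i and Clec2g overlap other RefSeq genes, so their reads are uncertain.

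The other 8 Klr genes lay within 2-fold. The activating receptor Klrk1 (NKG2D) had 500 and 530 reads (53.2 and 62.7 CPM, 1.18-fold higher in spleen, 1.04 to 1.33), Klrb1c (NK1.1) 328 and 282, and Klrb1f 132 and 100. Klrb1a, Klrb1b, Klrc1 and Klrc2 had 26 to 82 reads in bone marrow and 28 to 91 in spleen. Per length, Klrd1 was 0.919 of Klrk1 in bone marrow and 2.76 times it in spleen. Klrc1 (38.6% of windows), Klrc2 (29.4%), Klrb1b (27.2%) and Klrb1c (17.0%) share sequence with relatives, so the split of their reads is uncertain, whereas Klrb1f shares none. NK markers summed to 649 and 934 CPM, with 6 of 13 higher in spleen, 1 in bone marrow and none at 0. The NK receptor gene Ncr1 had 243 and 236 reads. Their part in the result, and that of the T cell markers, was not tested. Of the receptor ligands, H2-T23, the class I molecule that CD94 with Klrc1 binds, was at 120 and 296 CPM, and Cdh1, the E-cadherin ligand of Klrg1, at 39.3 and 4.37 CPM.

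Outside these groups, Clec11a, a secreted growth factor of bone marrow, was 8.09-fold higher in bone marrow on few reads (63 and 7, or 6.70 and 0.828 CPM; 3.71 to 20.9), and Clec16a, which acts in endosome traffic and mitophagy, had 280 and 297 reads (29.8 and 35.1 CPM, 1.18-fold higher in spleen, 0.999 to 1.39). Among 30 other lectin-like genes outside the symbol rule, 7 (23.3%) were called toward bone marrow and 8 (26.7%) toward spleen, beside 14.1% and 14.6% of all genes. They include the eosinophil protein Prg2 (4234 and 75 reads) and the B cell receptor Fcer2a (42 and 2684 reads).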

How the data were processed

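Each of the 2 libraries has a deposited gene table. Its columns, per the file headers, are the authors' count of uniquely placed reads, gene length, coverage (the percent of a gene that reads cover) and RPKM. Counts were the basis of every fold. The deposited RPKM served to compare genes within a library and as an alternative, and the percent coverage supports no result. Aligner, counter, genome build, annotation and strand setting: not given in the sources used here.

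Tables were joined on Entrez identifier, a gene absent from a table having 0 reads. All 68 symbols matched RefSeq (GRCm38.p6), and 1 was updated (Siglec5 to Siglecf). TMM factors from edgeR 4.0.16 (R 4.3.3; 0.977 and 1.02) gave CPM. Differences are bone marrow minus spleen on log2(CPM + 1), and intervals are exact conditional binomial (Clopper-Pearson, scipy 1.17.1). The calculation was tested on simulated data. There is no replicate, so no p-value was computed.

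Every gene with 10 or more reads was accounted for, with full values for called genes of 50 or more reads. The members and the partner and marker lists were chosen with earlier results of these data known, so nothing here is independent support for a pattern. Other settings tried were size factors of DESeq2 1.42.0, unscaled totals, pseudocounts of 0.1 and 5, other read limits, RPKM, a 4-fold limit and sets without the Klr genes, without families named for possible near-identical copies (Clec2, Clec4a, Clec4b, Cd209, Klrb1, Klrc, Klri) or without genes of shared sequence. Sequence sharing was measured in 50-base windows of GENCODE transcripts.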

Additional observations from a re-analysis of the deposited data

How the results depend on the processing

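With 1 library per tissue no setting can show how far another library would differ, and no paired analysis was possible because each group has 1 sample. No called gene changed direction under the scalings, pseudocounts and unit tried. Klrb1c, near equal at 0.06, turned to -0.0019 with library totals and -0.0018 with RPKM. The count higher in spleen, 14, became 7 of 32 genes without the families left out by name and 9 of 39 with genes of at most 5% shared windows, a limit chosen after seeing the data. At 4-fold both counts became 6. Elsewhere the bone marrow count ranged from 8 to 12 and the spleen count from 10 to 18. The median of -0.20 became 0.01 without the Klr genes and 0.10 without the named families, but stayed at -0.20 with the limit on shared windows. Calls that turned on a setting were of low or borderline genes: Ly75 passed with DESeq2 size factors (1.01) and Cd209a with library totals, and Cd209b, Cd209c, Cd209d and Lgals4 with a pseudocount of 0.1. Lgalsl fell to 0.95 with library totals and 0.73 with RPKM, and with a pseudocount of 5 Lgalsl, Clec2f, Clec4b2, Clec4e and Clec1b were no longer called. Scaling moved the median of all genes by under 0.1.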
